A study of Schmidtea mediterranea with 58 samples.

Results

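H3K4me3 regions that lie away from annotated gene starts were examined in the planarian flatworm *Schmidtea mediterranea*. A region was called distal when the smallest distance to the start of any gene listed with it was above 1000 bases, and near otherwise. Of 16158 regions in 7 tables, 879 (454 separate loci on 404 scaffolds) were distal. Chromatin was immunoprecipitated with an antibody against H3K4me3 and sequenced (ChIP-seq), beside input chromatin. In every table a pair of libraries was set against another pair: X1 against Xins cells without RNAi, *set1* RNAi with *unc* RNAi, and *mll* RNAi with a separate *unc* RNAi, both knockdowns in whole worms, X1 and Xins. The labels name no other genetic change and do not spell out the name *unc*. Double-stranded RNA was given in food made from bacteria for 6 days against *set1* and for 9 days against *mll*, and how long the *unc* controls were fed is not stated. The length of treatment and the targeted gene therefore cannot be told apart when both knockdowns are set side by side, and how far either knockdown lowered its target cannot be read from ChIP-seq tables.

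H3K4me3 is histone H3 carrying 3 methyl groups on a lysine near its amino-terminal end. It is deposited by complexes built around enzymes of the SET1 and MLL families and is best known as a mark of active promoters, where it surrounds the start of transcription. H3K4me3 far from an annotated start can mark a promoter that the annotation lacks, and in other animals it is also found at some enhancers. X1 is the planarian name for the sorted fraction of cells with more than the resting DNA content, enriched in proliferating stem cells (neoblasts), and Xins for the fraction that remains after irradiation. No marker of these cells could be checked in the tables, which hold regions and gene identifiers without gene names. X1 was read as the group on top in the untreated comparison from the order in which that table is named.

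The measured distances ran from the edge of a region to the gene start. For 757 of the 879 distal regions the start of the nearest listed gene could be placed, because 2 or more regions gave distances that met at one position. In all, 2482 gene starts were placed in this way. For 103 distal regions a placed start lay closer than the nearest gene listed with that region, but none of the 879 had a placed start within 1000 bases. The starts were placed from the same distances that define distal. A start that fewer than 2 regions place would be missed, so the check does not show that the label holds for every region. Of the 879, 12 began within 1000 bases of the start of their scaffold, and the distance to the other scaffold end was not measured. The nearest genes numbered 447. No gene name goes with these identifiers here, so the loci are described by position on scaffolds whose names begin with v31.

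Reads behind a value were recovered from the steps between normalized counts. In whole worms the median distal region held 584 to 1114 reads per library (584 to 891.5 after RNAi), after sorting and RNAi 37 to 143 reads in X1 or Xins, and in the *mll* Xins table the depth was not recovered. Coverage was uneven without RNAi, with 30 and 100 reads for X1, against 4 and 23 reads for Xins. The first-listed Xins library was thus the thinnest, and 1 of its reads was worth 4.43 to 4.56 normalized units. The 2 libraries of a group differed at distal regions by a median of 0.04 to 0.05 on the log2 scale in whole worms, and by 0.17 in X1 and 0.36 in Xins of the untreated comparison. The widest gap, 0.50, was between the *set1* RNAi libraries of Xins, and the controls of the *mll* Xins table differed by 0.36 at their single distal region.

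Distal regions made up 119 of the 1378 listed regions of the untreated comparison (8.64%, 95% Clopper-Pearson interval 7.21 to 10.2). The share was 442 of 8633 in the *set1* whole-worm table (5.12%, 4.66 to 5.61) and 257 of 5169 in the *mll* whole-worm table (4.97%, 4.40 to 5.60), whose intervals do not overlap that of the untreated comparison. In sorted cells 41 of 554 *set1* X1 regions (7.40%, 5.36 to 9.91) and 14 of 306 *mll* X1 regions (4.58%, 2.52 to 7.56) were distal. In Xins it was 5 of 106 *set1* regions (4.72%, 1.55 to 10.7) and 1 of 12 *mll* regions (8.33%, 0.211 to 38.5). The intervals cover the counting of listed regions only. The untreated table ended at low scaffold numbers, and on the same scaffolds the whole-worm shares were 6.09% for *set1* and 5.77% for *mll*, both below the interval of the untreated comparison. The *set1* X1 share was 8.95% on those scaffolds, above the 8.64% of the untreated comparison and within its interval, so the order of these 2 tables was not fixed.

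**Figure D1:**
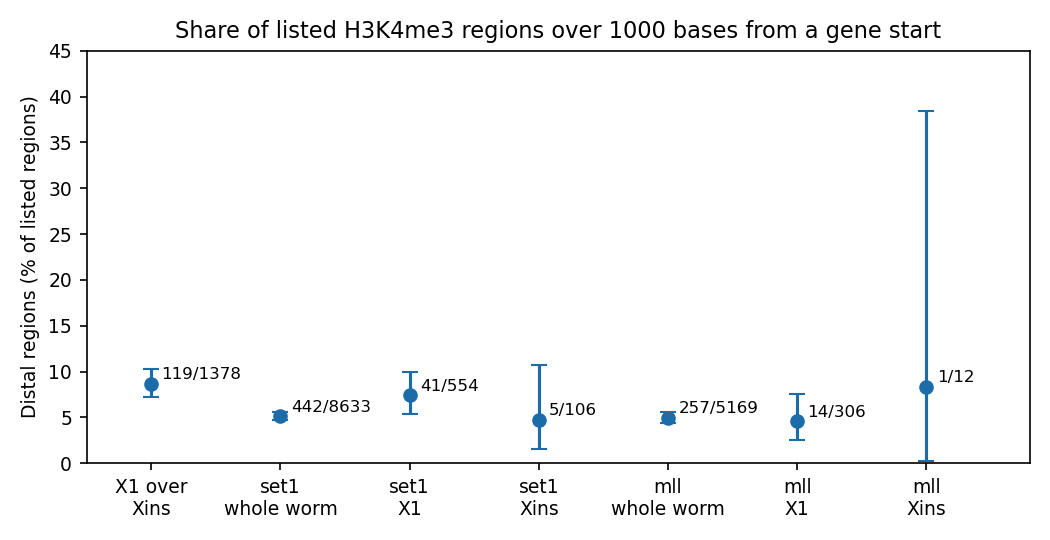
Distal regions as a percentage of the listed regions of each table, with the 95% Clopper-Pearson interval as a bar and the counts beside each point. The untreated X1 and Xins table stands at 8.64%, above both whole-worm tables at 5.12% and 4.97%, and the interval of the *mll* Xins table is wide because it lists 12 regions.

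Distances spread over more than 2 orders of magnitude, with a median of 9402 bases in the untreated comparison and of 10366 and 10720 bases in the *set1* and *mll* whole-worm tables. Between 10000 and 50000 bases lay 44 of 119, 175 of 442 and 103 of 257 regions of these tables, and 14, 50 and 28 regions were farther than 50000 bases. In the *set1* X1 table distal regions lay closer to genes, with a median of 2727 bases and 18 of 41 below 2000 bases. Distal regions had a median length of 1200 to 1400 bases in each table, against 1100 to 1500 bases at near regions. The longest distal region had 3100 bases and the longest near one 4800.

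In 2 tables a dense class of regions lay just inside the threshold of 1000 bases. In the untreated comparison 211 regions lay between 500 and 1000 bases of a gene start, and 19 of them (9.00%) were lower in X1, whereas 22 regions lay between 1000 and 1500 bases and 6 of them (27.3%) were lower in X1. In the *set1* X1 table these bands held 115 and 12 regions, all lower after RNAi. Nearest to the threshold in the *set1* whole-worm table was a region 1008 bases from SMED30008508 (v31.001855, 83201 to 84600) at 1210 and 1206 normalized counts after RNAi, against 1331 and 1259 in the control, and just inside it a region 998 bases from SMED30028896 (v31.025923, 1001 to 2000) at 446.3 and 414.0, against 479.5 and 504.5. In the *mll* whole-worm table the nearest distal region was 1007 bases from SMED30008984 (v31.003536, 51601 to 52600) at 512.5 and 496.5 after RNAi, against 503.1 and 466.1 in the control, and the nearest near one 998 bases from SMED30014350.1 (v31.005329, 37101 to 38800) at 724.9 and 720.0, against 614.6 and 640.2. On either side of the border the *set1* regions were lower after RNAi and the *mll* regions were higher on average, with overlapping groups only at the distal *mll* region.

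In untreated cells 68 of the 119 distal regions carried more H3K4me3 in X1 and 51 carried less. Both X1 libraries lay on the same side of both Xins libraries at all 119 (99.6% of all listed regions did so). Fitted with limma on log2(normalized count + 1) over the whole table, 110 were called at a Benjamini-Hochberg adjusted p below 0.05, 59 of them higher and 51 lower in X1, where 88.3% of all listed regions were called (56.2% higher and 32.1% lower). The authors' tables list regions found by comparing these same libraries. A call therefore says only that the difference exceeded the spread between libraries, and this holds for every table. Being listed did not itself mean a clear difference, as limma called 40.9% of all listed regions in *set1* and 37.2% in *mll* whole worms. The median log2 change was 1.69 among the 68 higher and -1.46 among the 51 lower regions, against 1.33 and -1.34 at near regions. The calls rested on the X1 libraries, because without the first-listed X1 library 4 of the 119 were called and without the second-listed 16. In those fits the lone X1 library was assumed to vary like the Xins libraries.

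Among distal regions with a mean count of at least 20, the largest X1 gain lay 1805 bases from SMED30023656, on v31.000834 (17701 to 19700). It had 44.1 normalized counts in both X1 libraries, against 0 and 10.3 in Xins, a log2 change of 3.74 (SE 1.23, limma adjusted p 0.0407). One Xins library held no read there, so the size of this change depends on the count of 1 that was added before taking logs, and with 0.5 added the call was lost (adjusted p 0.058). The next lay 159847 bases from SMED30031782, on v31.000158 (160701 to 163500), at 113.8 and 101.3 in X1, against 9.12 and 7.72 in Xins (log2 change 3.53, SE 0.22, limma adjusted p 0.00306). The farthest region of the table was also one of the strongest X1 gains: 230605 bases from SMED30027563, on v31.000031 (66301 to 69200), it had 98.2 and 86.5 in X1, against 9.12 and 6.00 in Xins (log2 change 3.47, SE 0.29, limma adjusted p 0.00347). At these far regions X1 was high in both libraries and Xins stood near the value of 1 or 2 reads of its thinner library.

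Above the same mean count, the largest X1 losses were nearly empty in X1. On v31.000691 (114501 to 117600), 22360 bases from SMED30012309, X1 had 1.84 and 0.83, against 82.1 and 66.1 in Xins (log2 change -5.03, SE 0.39, limma adjusted p 0.00331). Enrichment over input, deposited as a single value for each group, was 0.18 there in X1 and 6.78 in Xins. On v31.000848 (41401 to 43700), 1428 bases from SMED30015584, X1 had 0.92 and 4.41, against 63.8 and 42.0 in Xins (log2 change -4.03, SE 0.63, limma adjusted p 0.00843). Both are long for distal regions, at 3100 and 2300 bases. A further 5 distal regions, chosen after their values were seen, had 0 in each library of a group (4 in Xins and 1 in X1), and no fold is given for them. The highest enrichment over input at any distal region of the table was 103.3 in Xins, against 21.0 in X1, on v31.000220 (44101 to 45100, 12002 bases from SMED30034006), where X1 had 47.7 and 54.0 normalized counts, against 68.4 and 86.6 in Xins (log2 change -0.59, SE 0.18, limma adjusted p 0.0351).

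Distal regions were weaker than near ones mainly in the untreated comparison. Their median count was 26.5, against 37.7 at near regions, and their share fell with level, at 12.6%, 7.86% and 5.43% of the weakest, middle and strongest of 3 equal parts of the table by mean count. Median enrichment over input was 8.65 at distal and 13.5 at near regions in X1, whereas in Xins it was 7.36 and 7.46. Split by direction, distal regions were less enriched in Xins too. Their Xins medians were 10.3 where X1 was lower and 3.39 where X1 was higher, against 13.3 and 5.6 at near regions. Taken per library, the median log2 level of distal minus near regions was -0.66 and -0.65 in X1, against -0.56 and -0.41 in Xins, a difference of -0.17 (exact permutation test over the 4 libraries, two-sided, p = 0.33, the smallest p that 2 against 2 libraries allow). With the threshold at 500 bases this difference turned to 0.37. In the whole-worm tables the same quantity lay between -0.09 and -0.14 in all 8 libraries and differed between RNAi and control by 0.00 for *set1* (exact p = 1) and by 0.02 for *mll* (exact p = 0.33).

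**Figure D2:**
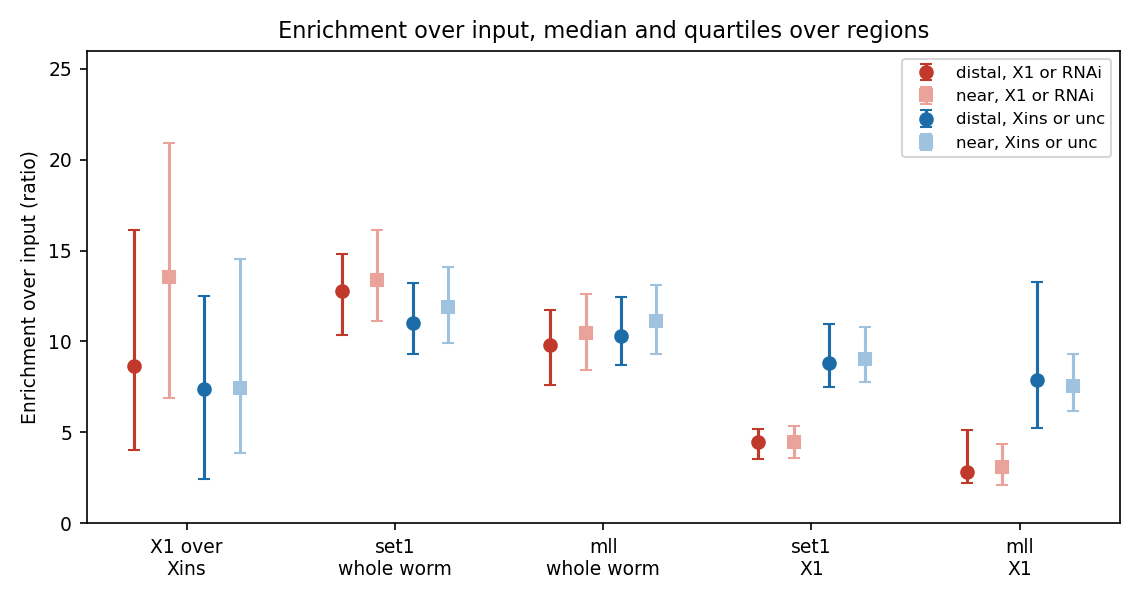
Enrichment over input (a ratio given by the authors for each group) at distal and near regions of 5 tables. Points are medians and bars quartiles over regions, with X1 or RNAi in red left of Xins or *unc* in blue. In X1 of the untreated comparison distal regions stand at 8.65 and near regions at 13.5, while in the other groups both kinds lie close together.

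After *set1* RNAi in whole worms distal regions split evenly, with 218 lower and 224 higher of 442. Limma called 180 of them, 115 lower and 65 higher, where 40.9% of all listed regions were called (25.8% lower and 15.1% higher). The shifts were small, and in whole worms a change in the mix of cells and a change of the mark per cell cannot be told apart. The median log2 change was -0.11 among lower and 0.07 among higher distal regions, the same as at near regions to 2 decimals, and no distal region changed by 0.5 or more, where 0.269% of near regions did. Without the second-listed control library 97 distal regions were called, 76 of them lower. With each library shifted to the same median over the table, 94 of 184 called regions were lower (51.1%), against 63.9% as deposited.

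The largest fall lay 2924 bases from SMED30026552, on v31.003196 (13301 to 14700), at 453.5 and 487.8 after *set1* RNAi, against 634.2 and 657.0 in the control (log2 change -0.46, SE 0.05, limma adjusted p 3.04e-15). The next lay 97086 bases from SMED30018797, on v31.000438 (142601 to 144000), at 1238 and 1220, against 1687 and 1619 (log2 change -0.43, SE 0.04, limma adjusted p 1.92e-23). This site was also listed in X1 (142901 to 143900), where it had 38.4 and 50.9 after *set1* RNAi, against 92.5 and 127.6 in the control (log2 change -1.28, SE 0.17). It was therefore lower in all 4 *set1* libraries of both tissues. The largest rise was at the very start of a scaffold (v31.007086, 1 to 1400, 8851 bases from SMED30032302), at 504.2 and 487.3, against 335.1 and 399.7 (log2 change 0.44, SE 0.06, limma adjusted p 2.66e-12). The next rise, on v31.000050 (339701 to 340800, 1256 bases from SMED30018928), was 921.3 and 884.2, against 750.3 and 692.8 (log2 change 0.32, SE 0.05, limma adjusted p 3.52e-10). At all 4 sites the RNAi and control libraries did not overlap, as at 343 of the 442 distal regions (77.7% of all listed regions).

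Enrichment over input gave another picture of this table than the counts. Its median at distal regions was 12.8 after *set1* RNAi and 11.0 in the control, and at near regions 13.4 and 11.9, although the normalized counts changed by a median of 0.01 on the log2 scale. At v31.009989 (1901 to 2900, 15765 bases from SMED30029116), the most enriched distal region, enrichment was 29.5 after RNAi and 19.2 in the control, while the normalized counts were 727.6 and 732.2, against 708.3 and 704.3 (log2 change 0.05, SE 0.05, limma adjusted p 0.421). The part that the input libraries have in this was not tested. The most distant region (v31.000059, 238301 to 239300, 222730 bases from SMED30034345) had 754.1 and 741.3 after *set1* RNAi, against 678.9 and 673.6 in the control (log2 change 0.14, SE 0.05, limma adjusted p 0.0127).

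In X1 all 41 distal *set1* regions were lower after RNAi and all were called, as were 100% of the listed regions (99.8% lower). The median log2 change was -0.86, against -0.89 at lower near regions, and 13 of 41 fell by 1 or more. The median enrichment over input was 4.49 after RNAi and 8.84 in the control. The largest fall, on v31.016463 (7301 to 9000, 1609 bases from SMED30022449.1), was to 11.4 and 22.1 after RNAi, against 98.8 and 115.8 in the control (log2 change -2.68, SE 0.21, limma adjusted p 1.82e-32), and enrichment there was 1.03 after RNAi and 5.71 in the control. The next, on v31.014818 (8101 to 9600, 1337 bases from SMED30027690), was to 18.2 and 22.9, against 80.0 and 74.2 (log2 change -1.86, SE 0.21, limma adjusted p 8.44e-17). The *mll* X1 table listed this site too, with a region reaching to 937 bases from the same gene start and hence counted as near, at 54.1 and 65.5 after *mll* RNAi, against 118.3 and 126.0 (log2 change -1.02, SE 0.13, limma adjusted p 3.08e-05).

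The region farthest from a gene in the *set1* X1 table was the strong X1 site on v31.000031 (67201 to 68200, 231605 bases from SMED30027563). It had 30.0 and 47.6 after *set1* RNAi, against 90.7 and 95.7 in the control (log2 change -1.28, SE 0.19, limma adjusted p 5.57e-11). The most enriched was on v31.029907 (3701 to 4900, 1753 bases from SMED30019924), at 30.7 and 31.8, against 72.0 and 62.3 (log2 change -1.08, SE 0.20, limma adjusted p 2.74e-07), with enrichment of 8.35 after RNAi and 16.9 in the control. Of the 6 distal *set1* X1 regions that overlapped a distal region of the untreated comparison, 5 lay at sites higher in X1 and 1 at a site lower in X1, against 120 and 4 of 124 pairs of near regions.

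All 5 distal *set1* regions of Xins were lower after RNAi, with log2 changes of -0.79 to -1.31, and all were called (100% of the 106 listed regions were). The largest fall, on v31.003829 (27501 to 28500, 1281 bases from SMED30013177), was to 34.2 and 20.2 after RNAi, against 59.4 and 74.6 in the control (log2 change -1.31, SE 0.27, limma adjusted p 2.08e-05). On v31.000244 (50501 to 51700, 2556 bases from SMED30007724) the counts were 52.9 and 35.6, against 90.2 and 90.3 (log2 change -1.04, SE 0.20, limma adjusted p 1.8e-05). The most enriched and most distant of the 5, on v31.000454 (21301 to 22300, 17729 bases from SMED30024368), had 52.9 and 39.7, against 76.8 and 82.7 (log2 change -0.79, SE 0.21, limma adjusted p 0.000335). The calls rested on the control libraries: without the first-listed control 3 of the 5 were called and without the second-listed 0 by limma (4 at an unadjusted p below 0.05), with the lone control assumed to vary like the RNAi libraries.

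After *mll* RNAi in whole worms 152 of 257 distal regions were lower and 105 higher. Limma called 102, 80 lower and 22 higher, where 37.2% of all listed regions were called (26.3% lower and 10.9% higher). The direction of small changes depended on the scaling. Shifting each library to the same median moved the median log2 change of all listed regions by 0.10, to 0.07 from -0.03 as deposited, and 48 of 153 called distal regions were then lower (31.4%), against 78.4% as deposited. Of all 257 distal regions 85 were lower on that scale. Of the 257, 7 fell by 0.5 or more and none rose by as much, against 208 falls and 1 rise among 4912 near regions. These 7 lay 5037 to 62915 bases from the nearest listed gene start, and 4 of them overlapped a distal region of the *mll* X1 table.

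The largest fall was on v31.000344 (86801 to 87900, 10296 bases from SMED30014333), to 283.7 and 281.3 after *mll* RNAi, against 605.3 and 580.2 in the control (log2 change -1.07, SE 0.06, limma adjusted p 2.23e-58). The next was on v31.000911 (59601 to 60800, 9171 bases from SMED30002668), to 268.5 and 274.2, against 509.2 and 536.5 (log2 change -0.94, SE 0.07, limma adjusted p 6.37e-42). The groups stood far apart at both. The largest rise was on v31.014747 (12801 to 13800, 12050 bases from SMED30010044), at 397.7 and 377.2, against 307.4 and 302.2 (log2 change 0.34, SE 0.07, limma adjusted p 9.9e-06), and the next on v31.000001 (152501 to 154000, 13839 bases from SMED30016078), at 1015 and 997.8, against 906.5 and 839.4 (log2 change 0.21, SE 0.04, limma adjusted p 8.41e-06). The most enriched region (v31.002353, 61801 to 63000, 38341 bases from SMED30024424) had overlapping groups, at 1185 and 1111 after RNAi, against 1043 and 1139 (log2 change 0.07, SE 0.04, limma adjusted p 0.121). So had the most distant one, on v31.000059 (237701 to 239200, 222130 bases from SMED30034345), at 929.3 and 907.2, against 928.4 and 938.1 (log2 change -0.02, SE 0.04, limma adjusted p 0.629), which turned to 0.08 on the shifted scale.

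After *mll* RNAi in X1 cells 11 of 14 distal regions were lower and 3 were higher, and limma called all 14 (98.7% of the listed regions were called, 92.2% lower and 6.54% higher). The 11 falls had a median log2 change of -1.15 (near: -1.12), and the 3 rises ranged between 0.20 and 0.28. The falls had control means of 70.4 to 182.7 normalized counts and the rises had 187.8 to 210.0 (near medians: 93.9 and 191.6). The largest fall was on v31.018013 (8101 to 9200, 5537 bases from SMED30025257), to 17.3 and 15.4 after RNAi, against 66.5 and 74.3 in the control (log2 change -2.04, SE 0.22, limma adjusted p 1.16e-05). The same site fell in whole worms (7901 to 9700), to 346.2 and 371.3, against 571.0 and 546.6 (log2 change -0.64, SE 0.06). On v31.000581 (118001 to 119000), at 45162 bases from SMED30011215 the farthest in this table, X1 had 54.9 and 60.5 after RNAi, against 95.5 and 100.9 (log2 change -0.76, SE 0.13, limma adjusted p 0.000176), and whole worms also had less (log2 change -0.60, SE 0.06).

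The 3 distal rises in X1 after *mll* RNAi were at sites of high enrichment in the control, 16.3 to 24.2, against 1.73 to 14.0 at the 11 falls. Near regions showed the same, with a median control enrichment of 19.5 at 20 rises, against 7.3 at 272 falls. On v31.002766 (32601 to 33800, 2070 bases from SMED30033688) X1 had 264.8 and 246.1 after RNAi, against 209.4 and 210.5 in the control (log2 change 0.28, SE 0.06, limma adjusted p 0.000545), with enrichment of 13.0 after RNAi and 16.3 in the control. On v31.008865 (13301 to 14300, 9625 bases from SMED30021617), the most enriched distal region of the table, the counts were 215.9 and 221.5, against 194.8 and 180.8 (log2 change 0.22, SE 0.06, limma adjusted p 0.0061), while enrichment was 15.5 after RNAi and 24.2 in the control. Counts and enrichment over input thus pointed in opposite directions at both. Where the region of v31.002766 met a distal region of the *set1* X1 table (32101 to 33300), the count there was lower after *set1* RNAi (log2 change -0.88, limma adjusted p 2.52e-08). In whole worms no distal region overlapping these 3 rises was called after *mll* RNAi.

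The X1 gain at v31.000834 in untreated cells was a further site of loss after *mll* RNAi. In X1 it (18101 to 19400, 2205 bases from SMED30023656) had 42.7 and 37.2 after RNAi, against 98.2 and 110.0 in the control (log2 change -1.36, SE 0.15, limma adjusted p 1.19e-05). The other distal site shared by the untreated and the *mll* X1 tables, on v31.000344, was likewise higher in X1 and lower after *mll* RNAi. So were 27 of 47 pairs of near regions.

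**Figure D3:**
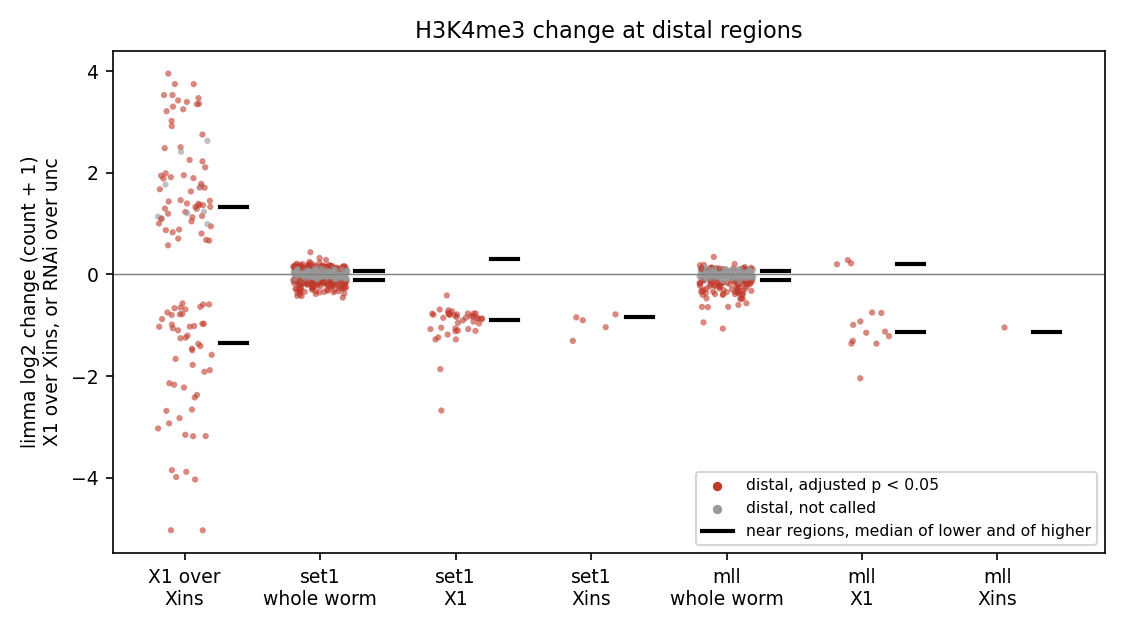
Log2 change from limma at each distal region (dots; red where the adjusted p was below 0.05) for each table, as X1 over Xins or RNAi over *unc*. Black bars give the medians of lower and of higher near regions. Distal regions spread from -5.03 to 3.95 in the untreated comparison, stay within 0.5 of 0 in the *set1* whole-worm table, and lie below 0 in the sorted-cell RNAi tables except for 3 *mll* X1 regions.

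A total of 232 distal loci were listed as distal in 1 table, 164 in 2, 50 in 3 and 8 in 4 tables. The pair of whole-worm tables alone accounted for 144 of the 164. The 6 loci present in 4 tables that had the largest smallest change were examined library by library.

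At v31.000344 (85901 to 88200 over all tables; start of SMED30014333 placed at 98196) X1 had 68.8 and 63.1, against 31.9 and 24.9 in Xins (log2 change 1.20, SE 0.20, limma adjusted p 0.00939). After *mll* RNAi X1 fell to 51.8 and 69.8, against 117.5 and 123.8 in the control (log2 change -0.99, SE 0.15, limma adjusted p 8.11e-05), and enrichment over input was 2.90 after RNAi and 14.0 in the control. After *set1* RNAi whole worms had 851.0 and 837.4, against 725.3 and 758.1 (log2 change 0.19, SE 0.05, limma adjusted p 0.000626). At this locus, which had the deepest distal *mll* loss in whole worms, the *set1* libraries lay above both controls.

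At v31.001731 (29901 to 31900; 16172 bases or more from SMED30001586) *mll* RNAi lowered the mark in all 3 tissues. Whole worms had 582.5 and 567.5 after RNAi, against 870.6 and 926.9 in the control (log2 change -0.64, SE 0.05, limma adjusted p 4.97e-39). X1 had 38.9 and 41.8, against 102.0 and 108.3 (log2 change -1.36, SE 0.14, limma adjusted p 1.12e-05). In Xins, where this was the only distal region of 12 (100% of them called), the counts were 34.8 and 34.7, against 63.3 and 81.3 (log2 change -1.02, SE 0.20, limma adjusted p 0.0014). When either control library was left out the Xins call was lost (limma adjusted p 0.052 in both cases, unadjusted p below 0.05 in both). After *set1* RNAi whole worms had 1225 and 1190, against 1160 and 1134 (log2 change 0.07, SE 0.04, limma adjusted p 0.143).

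At v31.000159 (14501 to 16900; start of SMED30008297 placed at 12448) both knockdowns lowered the mark. X1 had 81.7 and 82.1, against 31.9 and 48.0 in Xins (log2 change 1.04, SE 0.24, limma adjusted p 0.0162). After *set1* RNAi X1 had 75.5 and 82.3, against 122.1 and 133.6 (log2 change -0.69, SE 0.13, limma adjusted p 4.02e-07), and whole worms had 791.4 and 764.7, against 893.8 and 859.3 (log2 change -0.17, SE 0.05, limma adjusted p 0.00154). After *mll* RNAi whole worms had 647.9 and 627.0, against 869.4 and 901.1 (log2 change -0.47, SE 0.05, limma adjusted p 1.95e-22). The groups did not overlap in any of these tables.

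At v31.000007 (61401 to 65000; start of SMED30007284.1 placed at 112536) X1 was the lower fraction, with 97.3 and 97.7, against 150.5 and 144.1 in Xins (log2 change -0.59, SE 0.11, limma adjusted p 0.011). After *set1* RNAi X1 had 70.7 and 56.3, against 111.4 and 105.2 (log2 change -0.77, SE 0.15, limma adjusted p 7.8e-07). The windows of this locus differed between tables, and those of the whole-worm tables (61401 to 63100 for *set1* and 64001 to 65000 for *mll*) did not overlap each other. The *set1* X1 window (63201 to 64200) did not reach the *set1* whole-worm window. In whole worms the changes were -0.18 (SE 0.04, limma adjusted p 0.000469) after *set1* RNAi and -0.12 (SE 0.05, limma adjusted p 0.044) after *mll* RNAi, the second lost when libraries were shifted to the same median (log2 change -0.02). Enrichment over input was low here in the *mll* whole-worm table, at 1.38 after RNAi and 1.58 in the control.

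At v31.000144 (24901 to 27200; start of SMED30021939 placed at 10581) X1 had 84.4 and 91.1, against 54.7 and 43.8 in Xins (log2 change 0.83, SE 0.17, limma adjusted p 0.0126), and *set1* RNAi left 47.95 and 38.97 in X1, against 87.1 and 95.7 in the control (log2 change -1.06, SE 0.18, limma adjusted p 1.5e-08). In whole worms neither knockdown passed the test (-0.10, SE 0.05, limma adjusted p 0.0776 for *set1*, and -0.04, SE 0.05, limma adjusted p 0.536 for *mll*). The *mll* value turned to 0.06 with libraries shifted to the same median and to 0.01 without the second-listed *mll* library.

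At v31.000684 (111001 to 113900; start of SMED30022952 placed at 109466) overlapping windows of 1 table went opposite ways. After *set1* RNAi the window from 111801 to 113700 had 2036 and 1943 in whole worms, against 2406 and 2491 (log2 change -0.30, SE 0.04, limma adjusted p 4.65e-13), whereas that from 111001 to 112600 had 1858 and 1831, against 1768 and 1725 (log2 change 0.08, SE 0.04, limma adjusted p 0.0894). In X1 *set1* RNAi gave 85.1 and 86.6, against 184.1 and 154.3 (log2 change -0.97, SE 0.12, limma adjusted p 1.69e-14), and in Xins 80.4 and 56.7, against 118.0 and 126.2 (log2 change -0.84, SE 0.18, limma adjusted p 4.54e-05). Enrichment over input in Xins went the other way there, at 9.57 after RNAi and 8.97 in the control. After *mll* RNAi whole worms had 2373 and 2309, against 2200 and 2175 (log2 change 0.10, SE 0.03, limma adjusted p 0.00508).

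**Figure D4:**
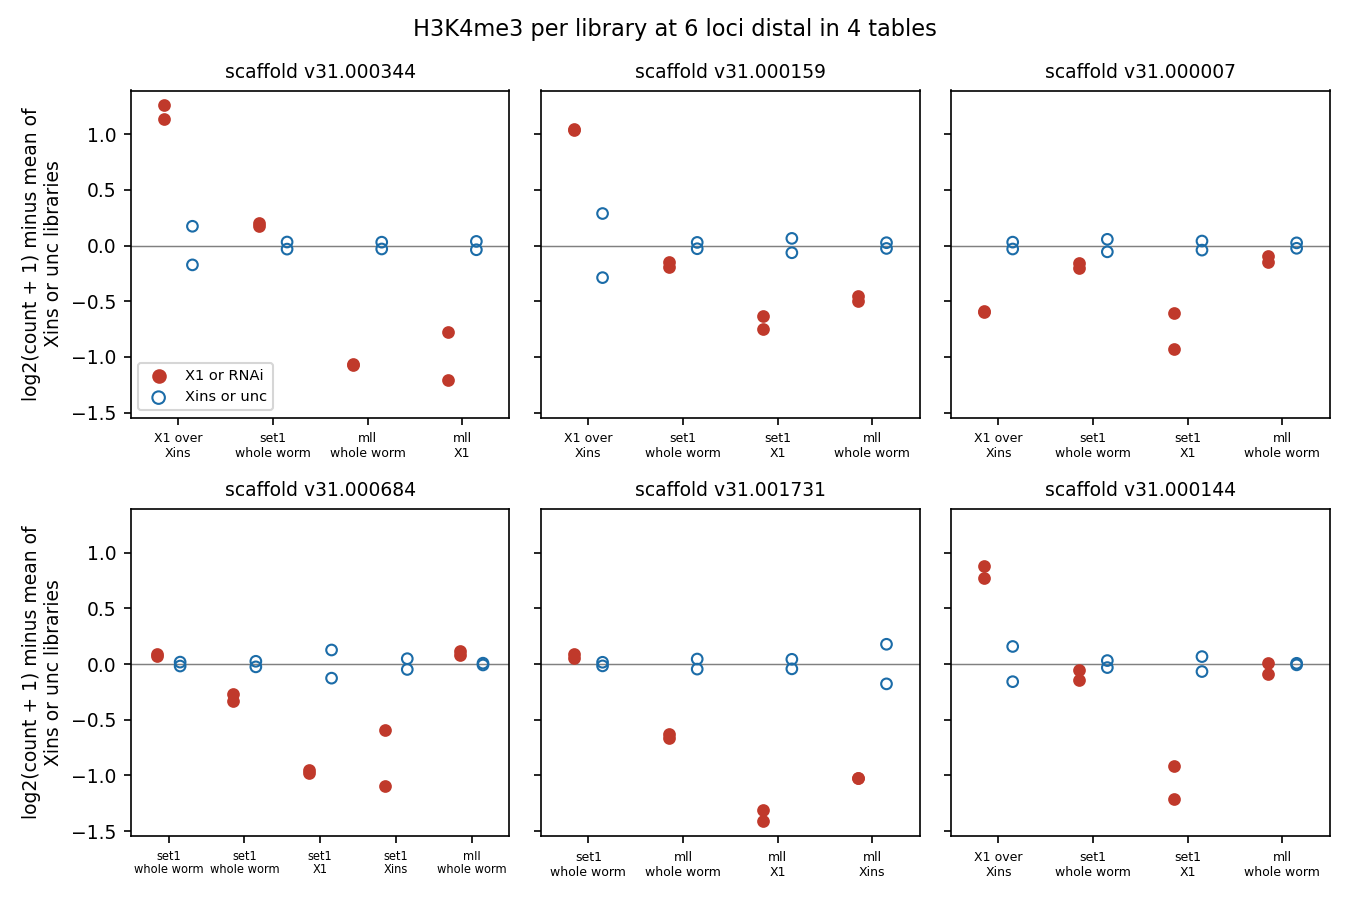
Per-library H3K4me3 at the 6 loci, as log2(normalized count + 1) minus the mean of the 2 Xins or *unc* libraries of the same table. Filled red points are X1 or RNAi libraries and open blue points Xins or *unc* libraries. At v31.000344 and v31.001731 the *mll* libraries lie far below their controls while the *set1* whole-worm libraries lie slightly above theirs.

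Windows going opposite ways side by side were common in whole worms. For *set1*, 257 of 442 distal regions (58.1%) overlapped another listed region of the table and all 257 met one of opposite direction. Of 8191 near regions 5218 (63.7%) overlapped another, 5169 of them one of opposite direction. For *mll*, 41 of 257 distal regions overlapped another (16.0%), all with one of opposite direction, against 20.4% of near regions, where all 1002 overlaps were also with one of opposite direction. Opposite direction at an overlap was thus not particular to distal regions. The untreated and sorted-cell tables had no such distal overlap. A small whole-worm change at a distal region can therefore be the flank of a change of the other sign, and counting 1 region per locus, a choice made after seeing the data, left 151 of 326 called for *set1* (101 lower) and 99 of 237 for *mll* (77 lower). The start of the nearest gene was itself listed for 92 of 442 distal regions of the *set1* and 35 of 257 of the *mll* whole-worm table. Direction was shared with any region listed at that start for 51 of the 92 and 18 of the 35, and in the untreated comparison for 5 of 9. Where regions of both directions were listed at a start a match was certain, and how often this was so was not measured.

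Distal and near regions alike recurred in both whole-worm tables. Any listed region of the other table was met by 69.0% of distal *set1* and 89.1% of distal *mll* regions, against 74.3% and 90.2% of near regions. Of the 442 *set1* regions 288 (65.2%) overlapped a distal *mll* region, and of the 257 *mll* regions 219 (85.2%) overlapped a distal *set1* region. They formed 318 overlapping pairs, of which 94 were lower in both, 59 higher in both, 74 lower after *set1* and higher after *mll* RNAi, and 91 the other way. Thus 48.1% had the same direction, against 48.2% of the 6906 pairs of near regions. These are directions on the deposited scale, where 152 of the 257 distal *mll* regions were lower. With libraries shifted to the same median 85 of the 257 were lower, and the pairs were not counted again on that scale. Among the 48 pairs in which limma called both, 21 were lower in both, 5 higher in both, 10 lower only after *set1* and 12 lower only after *mll* RNAi. Across the 318 pairs, which share regions and are not independent, Spearman's rho between both changes was -0.11 and Pearson's r was -0.15. The knockdowns had separate control libraries.

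**Figure D5:**
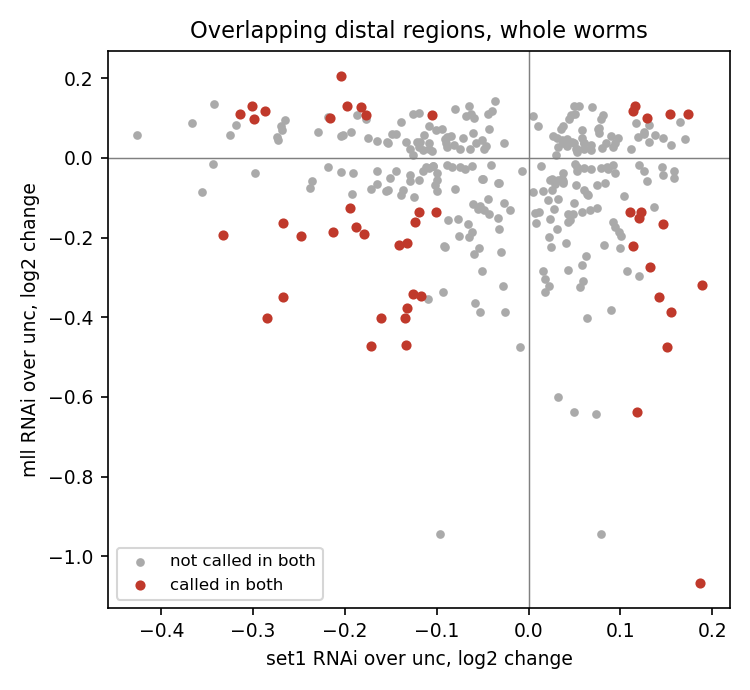
Log2 change after *mll* RNAi against log2 change after *set1* RNAi at 318 overlapping pairs of distal whole-worm regions, with the 48 pairs called in both tables in red. Points fall in all 4 quadrants, and the deepest *mll* losses, at -0.94 and -1.07, lie within 0.2 of 0 for *set1*.

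Distal regions also recurred across tissues of the same knockdown, as near regions did. Any listed whole-worm region of the same knockdown was met by 80.5% of distal and 87.1% of near *set1* X1 regions. For *set1* Xins these shares were 100% and 97.0%, and for *mll* X1 50% and 58.6%. Of the 41 distal *set1* X1 regions 22 (53.7%) overlapped a distal *set1* region of whole worms, making 31 pairs of which 20 were lower in both and 11 higher in whole worms. Of the 21 pairs called in both tissues, 17 were lower in both, against 385 of 433 pairs of near regions. In Xins 4 of 5 distal *set1* regions overlapped a distal *set1* region of whole worms. For *mll* 7 of 14 X1 regions overlapped a distal whole-worm region, and the 4 pairs called in both were all lower in both, against 136 of 144 pairs of near regions. Of 119 distal regions of the untreated comparison 45 (37.8%) overlapped a distal *set1* and 36 (30.3%) a distal *mll* region of whole worms. Any listed *set1* whole-worm region was met by 49.6% of distal and 57.7% of near regions, and any *mll* one by 40.3% and 49.3%. Of the 27 pairs called in the untreated and *set1* whole-worm tables, 12 were higher in X1 and lower after *set1* RNAi, 2 were higher in both, 9 lower in both and 4 lower in X1 and higher after RNAi, so that 40.7% had the same direction, against 25.3% of near pairs. Of the 16 called with *mll*, 5 were higher in X1 and lower after RNAi, 5 higher in both and 6 lower in both, so that 68.8% had the same direction, against 49.8% of near pairs. The difference between distal and near pairs was not tested. Directions of the *mll* whole-worm regions are again those of the deposited scale, and many of them depend on it.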

How the data were processed

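H3K4me3 chromatin (29 samples) and input chromatin (29 samples) were sequenced, and 28 H3K4me3 libraries entered the 7 tables of regions, 2 per group. Groups came from the labels, and the single untreated whole-worm pair entered no comparison. The submitters' processing notes name CASAVA 1.8.2, Bowtie and MACS2. The genome build and the version of the region caller, diffReps, are not given in the sources used here. Each deposited table holds normalized counts of both libraries of a group in 1 cell, without replicate numbers. It also holds the authors' mean signal per group and the authors' enrichment over input per group, a ratio. Columns with the authors' own direction, fold change, p-values and best window were not used. Individual peak lists were not used. *Drosophila* S2 cells appear in the protocol, and whether they served for scaling is not given in the sources used here. The X1 and Xins table is cut short in its last line and reaches only scaffolds numbered up to 1565 on its second pass over them. It also lists regions on higher numbers, such as v31.001866. Shares on the same scaffolds were taken up to its highest scaffold number, so they include scaffolds that it may cover only in part.

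One region was kept per scaffold, start and end, with the smallest listed distance to a gene start, and distal meant above 1000 bases. Members, lists and tests were chosen with earlier results of these data known. Changes were fitted on log2(normalized count + 1) with limma 3.58.1 in R 4.3.3, with a variance trend in tables of at least 50 regions, and p-values were adjusted by Benjamini-Hochberg over each whole table (threshold 0.05). The fit was tested on simulated data with the same spread for every region and library of a table, so unequal spread was not covered. A fold change on this scale understates changes at low counts. The libraries of a group are not said to come from separate animals, so p-values measure the spread between these samples, which may be technical. Shares have 95% Clopper-Pearson intervals, for counting error only. Reads were recovered from the step between normalized counts of a library, region by region. Regions were named, among distal regions with a mean count of at least 20, as the 2 largest falls and 2 largest rises called by limma with separated groups, the most enriched and the most distant region of each table, plus up to 6 loci found distal in the most tables, every distal *mll* Xins region, and the regions next to the threshold in whole worms. Others are described where they overlap one of these. Alternatives were the pseudocount, a filter on low counts, the variance trend, the distance threshold, each library left out, and libraries shifted to the same median. Python 3.11.15, pandas 2.3.3, scipy 1.17.1 and matplotlib 3.10.9 were used.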

Additional observations from a re-analysis of the deposited data

Results flagged for a closer look

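At 3 of the 6 loci examined library by library, the libraries of both knockdowns moved in opposite directions, each set against its own controls, and the difference between the knockdowns was not tested. Opposite directions were common in whole worms, where 48.1% of 318 distal pairs and 48.2% of 6906 near pairs had the same direction on the deposited scale. The signs of small *mll* changes in whole worms depended on that scale. At v31.000344 the log2 change was -1.07 in whole worms and -0.99 in X1 after *mll* RNAi, and 0.19 in whole worms after *set1* RNAi. At v31.001731 *mll* RNAi gave -0.64 (whole worms), -1.36 (X1) and -1.02 (Xins), and 0.074 in whole worms after *set1* RNAi, which did not pass the limma test. At v31.000684 it was 0.10 in whole worms after *mll* RNAi, and after *set1* RNAi -0.30 in whole worms (111801 to 113700), -0.97 in X1 and -0.84 in Xins, where enrichment over input was 9.57 after RNAi and 8.97 in the control. The overlapping *set1* whole-worm window from 111001 to 112600 had a change of 0.079, opposite to the *set1* change in Xins.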

How the results depend on the processing

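Above 500, 2000 and 5000 bases the distal share was 23.9%, 6.53% and 5.15% in the untreated comparison, 7.66%, 4.17% and 3.24% in *set1* whole worms, 28.2%, 4.15% and 3.07% in *set1* X1, and 7.64%, 4.16% and 3.27% in *mll* whole worms. In *set1* Xins it was 0.943% above 5000 bases. On the scaffolds of the untreated table it was 6.09% in *set1* and 5.77% in *mll* whole worms. Called distal regions above 500 bases numbered 298 in the untreated comparison, 288 in *set1* whole worms, 156 in *set1* X1, 8 in *set1* Xins, 160 in *mll* whole worms and 23 in *mll* X1. Above 2000 bases 23 were called in *set1* X1 and 3 in *set1* Xins, and above 5000 bases 66, 119, 17, 1 and 8 in the untreated, *set1* whole-worm, *set1* X1, *set1* Xins and *mll* X1 tables. A mean count of at least 20 left 71 called in the untreated comparison. The percentage lower was 21.2% above 500 bases in the untreated comparison, and among called regions 63.9% in *set1* and 78.4% in *mll* whole worms. The difference in distal minus near level was 0.37 above 500 bases in the untreated comparison. Above 500, 2000 and 5000 bases it was 0.0139, -0.00384 and -0.00525 in *set1* and 0.0466, 0.00463 and -0.00137 in *mll* whole worms. It was 0.0709 above 2000 bases in *set1* X1, and 0.0580 and 4.1e-05 above 2000 and 5000 bases in *mll* X1.

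With each library left out in turn the called distal regions ranged from 4 to 117 in the untreated comparison (4 and 16 without an X1 library), 97 to 124 in *set1* whole worms, 0 to 5 in *set1* Xins, 69 to 93 in *mll* whole worms, 13 to 14 in *mll* X1 and 0 to 1 in *mll* Xins, and all 41 *set1* X1 regions were called each time. The *mll* whole-worm change at v31.000059 turned to 0.077 with libraries shifted to the same median. At v31.000144 it turned to 0.062 on that scale and lay between -0.091 and 0.013 with each library left out in turn, above 0 without the second-listed *mll* library. The cause of these changes was not tested. No paired analysis was possible because the 2 values in a table cell carry no replicate number. Depth limited the Xins side of the untreated comparison, where the median distal region held 4 reads in 1 library.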
